A study of Homo sapiens with 30 samples.

Results

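The 8 genes described here encode ATP-binding cassette (ABC) transporters that move drugs, conjugates and sterols out of cells: ABCB1, ABCC1, ABCC2, ABCC3, ABCC4, ABCG2, ABCA1 and ABCG1. Every probe set that the array's platform annotation assigns to exactly 1 of these symbols was taken, which gave 13 of the 22215 probe sets tested and 8 of the 11963 genes measured. A further probe set carries ABCB4 and ABCB1 together and was not counted. RNA came from a co-culture of 2 established human colon cancer lines, Caco-2, which forms an enterocyte-like layer, and HT29-MTX, a mucus-secreting line selected with methotrexate, grown for 14 days on porous inserts. Particles were added on the apical side, so the groups were multi-walled carbon nanotubes (MWCNT) at 10 or 100 µg/ml for 1 or 24 h, titanium dioxide nanobelts (TiO2-NB) at the same doses and times, and controls that received only fresh medium for 1 or 24 h. The labels name no control given the suspension without particles. Each of the 10 groups has 3 biological replicates, 30 arrays in all. The flasks were pooled before plating, so p-values measure only the spread between cultures of the same cells.

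ABC transporters use ATP to carry their substrates across a membrane against a gradient. In the intestine, ABCB1 (P-glycoprotein), ABCG2 (breast cancer resistance protein) and ABCC2 (MRP2) lie in the apical membrane and return drugs, toxins and conjugates to the lumen, while ABCC3 (MRP3) and ABCC1 (MRP1) are basolateral and send conjugates towards the blood. ABCC4 (MRP4) exports cyclic nucleotides and prostaglandins among other anions, and methotrexate is a known substrate of several ABCC pumps and of ABCG2. ABCA1 and ABCG1 load cholesterol onto apolipoprotein A-I and onto high density lipoprotein, and both genes are classical targets of the liver X receptors (LXR). The genes of the drug pumps are known to answer to PXR, CAR, the aryl hydrocarbon receptor and NRF2.

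RefSeq promoter windows, the 250 bases before the annotated start in build GRCh38.p14, were found for 5 of the 8 genes (ABCB1, ABCC2, ABCC4, ABCG2 and ABCA1). The windows below belong to the genes on which the results turn: ABCC2 and ABCG2, which each had a called change on their main probe set, and ABCA1, which had one on its dimmest probe set. They lie at chr10:99782390-99782639 on the plus strand for ABCC2, at chr4:88231627-88231876 on the minus strand for ABCG2 and at chr9:104928156-104928405 on the minus strand for ABCA1. Each is written 5′ to 3′, and capitals mark matches to the motifs searched.
ABCC2: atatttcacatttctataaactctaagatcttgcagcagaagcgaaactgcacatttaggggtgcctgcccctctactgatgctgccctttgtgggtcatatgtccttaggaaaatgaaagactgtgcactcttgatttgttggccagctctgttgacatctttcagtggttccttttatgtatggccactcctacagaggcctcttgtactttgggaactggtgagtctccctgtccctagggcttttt
ABCG2: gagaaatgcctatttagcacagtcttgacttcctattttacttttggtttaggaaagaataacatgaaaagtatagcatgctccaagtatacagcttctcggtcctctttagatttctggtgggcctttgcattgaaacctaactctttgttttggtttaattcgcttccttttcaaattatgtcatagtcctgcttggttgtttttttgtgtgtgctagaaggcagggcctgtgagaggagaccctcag
ABCA1: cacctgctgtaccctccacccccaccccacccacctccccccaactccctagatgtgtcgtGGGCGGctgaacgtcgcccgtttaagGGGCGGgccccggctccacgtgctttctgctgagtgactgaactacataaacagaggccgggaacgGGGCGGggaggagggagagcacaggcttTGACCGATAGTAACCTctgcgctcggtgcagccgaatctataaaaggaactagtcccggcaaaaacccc

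On both strands 6 motifs were searched, and the ABCC2 and ABCG2 windows held none of them. They were the GC box GGGCGG (present in 42.6% of 35116 RefSeq promoter windows), the antioxidant response core TGACNNNGC (10.9%), the dioxin response core GCGTG (32.2%), the CCAAT box (32.0%), the nuclear receptor site AGGTCA (12.1%), and a relaxed LXR direct repeat, AGGTNA followed after 4 bases by NGGTCA (0.0797%, or 28 windows), a site that can overlap with AGGTCA. The ABCB1 window held none either, and the ABCC4 window, not printed here, held 1 antioxidant response core and 2 dioxin response cores. The ABCA1 window held 3 GC boxes and, on its minus strand between 69 and 54 bases before the start, the relaxed direct repeat. That relaxed motif was written down after the ABCA1 window had been read. GC content was 45.6% in the ABCC2 window, 40% in that of ABCG2 and 61.6% in that of ABCA1, against a median of 58% over all windows. A match is a run of letters and not a measured binding site. Each gene was read at a single annotated start, so promoters at any other starts it has were not searched.

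The data are log2 levels that the authors made with RMA, which puts all arrays on the same distribution, so every change is relative to the other transcripts of the same array. Array medians lay between 6.45 and 6.49. Levels of different probe sets cannot be set against each other as amounts of RNA. Ranks among probe sets given here and below describe array signal only. All 5 epithelial markers (12.2 to 13.11) and 10 of 11 enterocyte markers lay above the median probe set, as did 7 of 10 goblet and mucus markers, with MUC2 at 6.07, MUC5AC at 6.72 and CLCA1 at 4.25. Markers of other cell types were mostly dim: 2 of 6 for fibroblasts, 1 of 5 for endothelium and 4 of 8 for leukocytes lay above the median probe set, with the leukocyte marker PTPRC at 3.63, while LYZ reached 11.31. The signal of 18S ribosomal RNA, a sign of RNA quality, exceeded that of the 1 h control by 1.17, 1.51, 0.84 and 0.80 with MWCNT 10, MWCNT 100, TiO2-NB 10 and TiO2-NB 100 µg/ml (exact two-sided permutation p = 0.1, 0.1, 0.4 and 0.1, where 0.1 is the smallest that 3 arrays against 3 allow), and that of the 24 h control by 0.24, 0.06, 0.40 and 0.19.

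The group means of the 8 transporter genes differed little in the co-culture. On the probe set with the highest mean for each gene, the lowest and highest of the 10 group means were 9.51 and 9.70 for ABCB1, 8.58 and 8.97 for ABCG2, 7.41 and 7.62 for ABCC1, 8.60 and 8.93 for ABCC2, 11.33 and 11.53 for ABCC3, 8.05 and 8.29 for ABCC4, 9.65 and 10.02 for ABCA1, and 5.10 and 5.44 for ABCG1. ABCC3 was brighter than 95.7% of all probe sets tested and ABCA1 than 87.6%, whereas the brighter ABCG1 probe set exceeded 32.1%. The median range of group means was 0.26 over the 13 probe sets, against 0.25 over all probe sets tested. The median standard deviation (SD) within groups was 0.10 in both. When the 10 groups were ordered by mean, each neighbouring pair had overlapping arrays in 10 of the 13 probe sets, and 1 of 9 neighbouring pairs was separated in ABCC2, ABCA1 216066_at and ABCG1 211113_s_at. The same count was not made over all probe sets, so it cannot set the transporters apart from other genes.

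**Figure D1:**
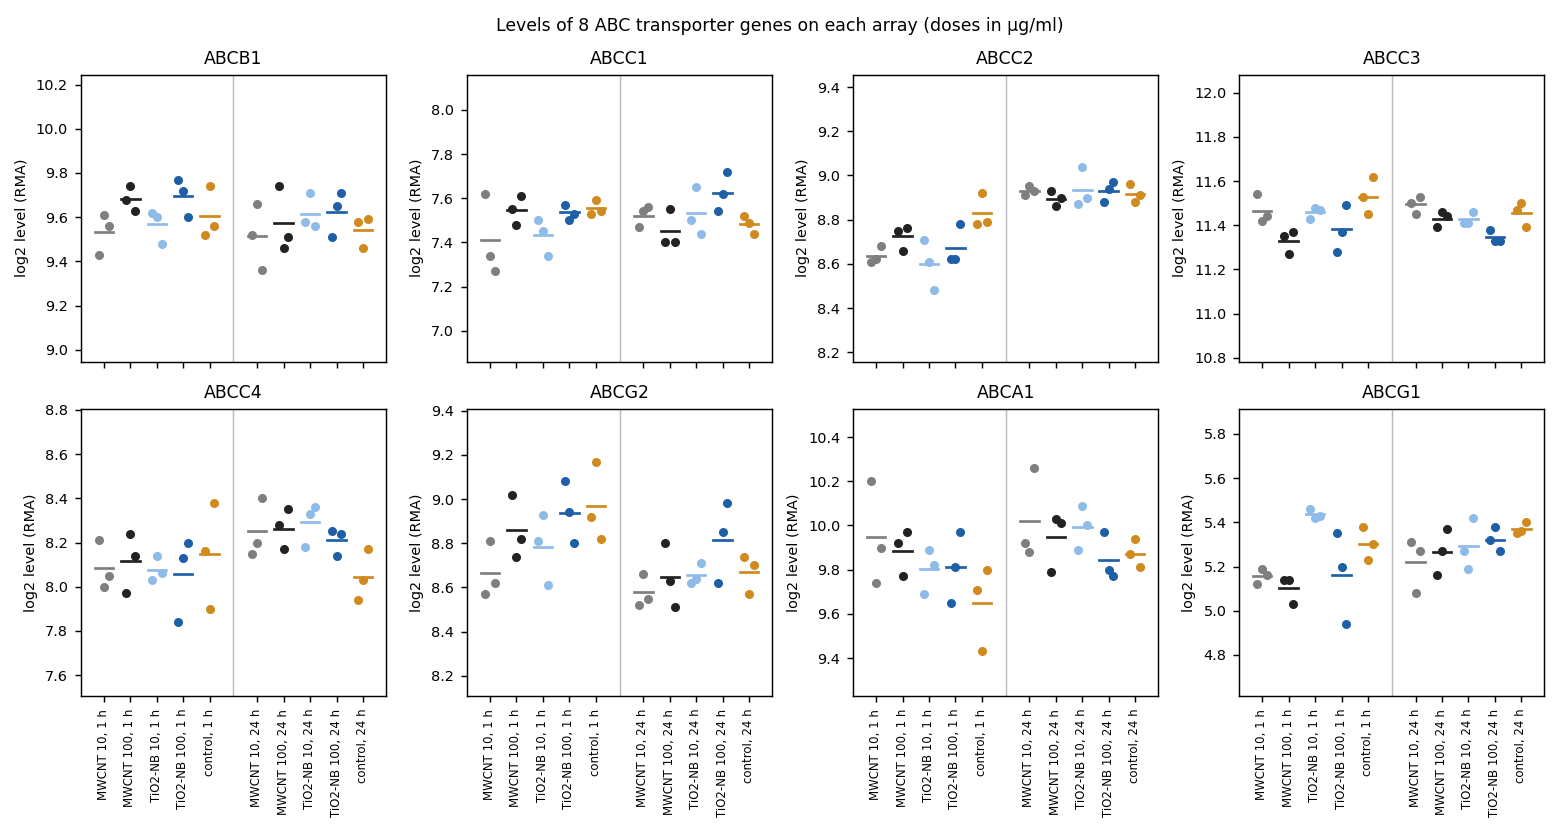
Log2 level (RMA, vertical axis, each panel spanning the same number of log2 units) of the brightest probe set of each transporter gene on each of the 30 arrays, by group along the horizontal axis (doses in µg/ml, 1 h left and 24 h right of the grey line, controls last in each). Points are arrays and bars are means of 3 arrays; in ABCC2 the means of all 5 groups of 1 h lie below those of all 5 groups of 24 h, although arrays of most neighbouring groups overlap there, as in the other panels.

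The question of the comparisons with control was whether either particle changed the genes of the efflux pumps, and the answer in numbers was small. At 1 h, 1 of the 13 probe sets was called in each of the 4 comparisons (limma, Benjamini-Hochberg adjusted p under 0.05 over all 22215 probe sets), which is 7.69%. The share of all probe sets called was 6.46% with MWCNT 10, 7.78% with MWCNT 100, 7.84% with TiO2-NB 10 and 8.43% with TiO2-NB 100 µg/ml, so the transporters' share of calls lay near the background. The median absolute change of the 13 was 0.146, 0.126, 0.096 and 0.142. Over all probe sets it was lower, at 0.074, 0.079, 0.078 and 0.08, a difference that was not tested. The 3 exposed arrays lay wholly on 1 side of the 3 controls in 4, 4, 4 and 2 of the 13 probe sets in these comparisons, against 23.4%, 21.3%, 22.4% and 23.7% of all probe sets. In this bulk RNA, fewer cells of a type and less RNA per cell cannot be told apart. The 4 exposed groups of a time share their 3 control arrays, so calls that recur among them are not independent.

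**Figure D2:**
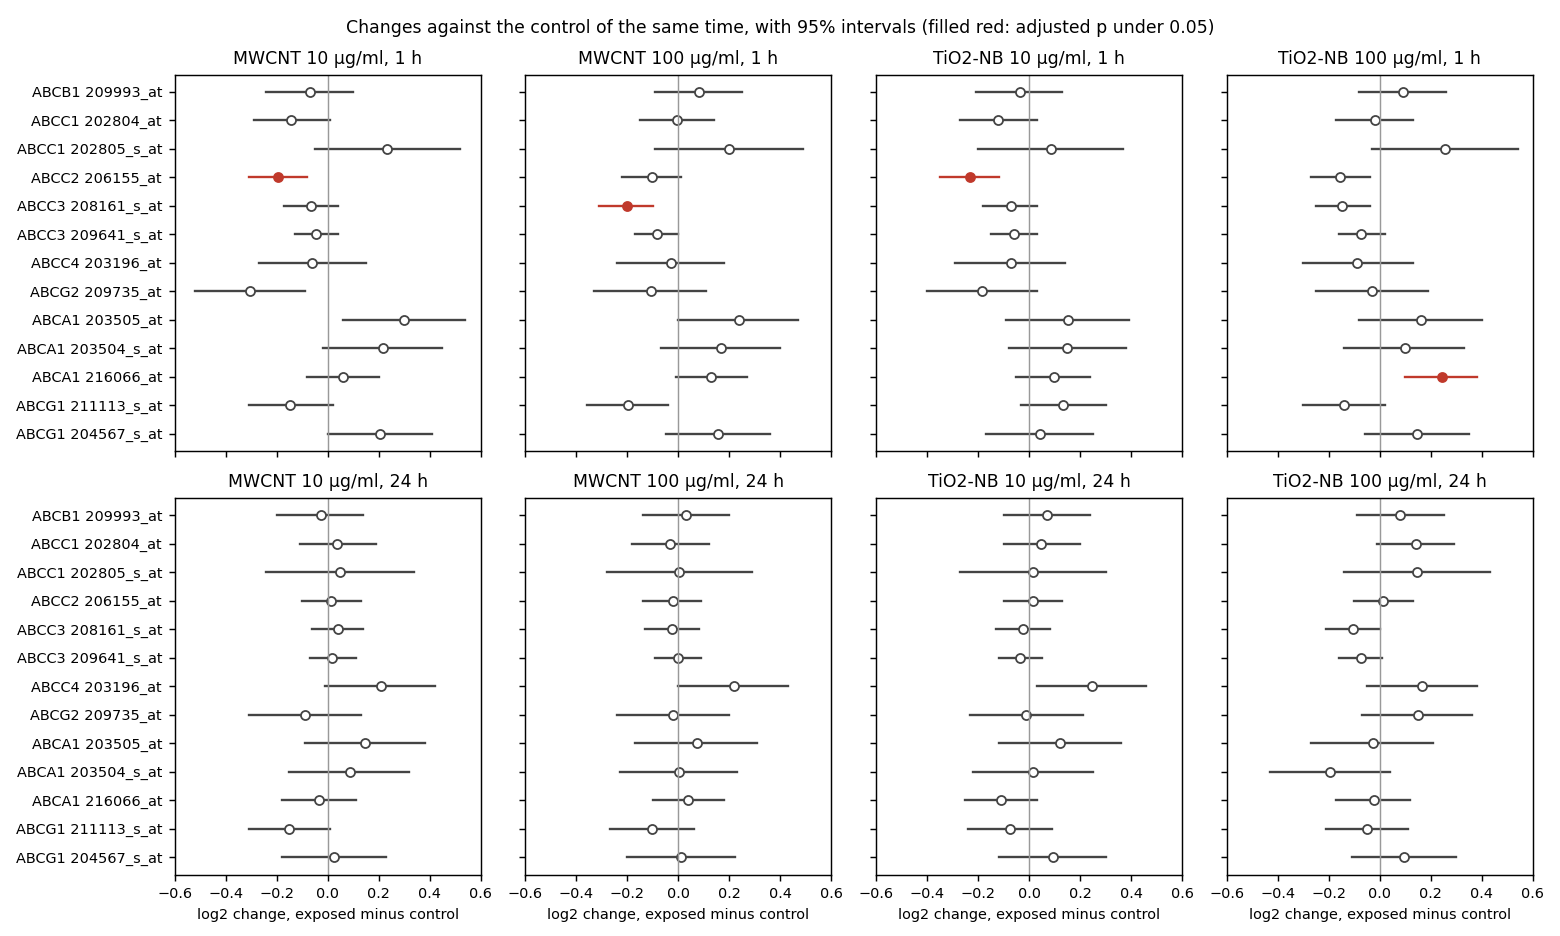
Log2 change (horizontal axis, exposed minus control of the same time) of the 13 probe sets in the 8 comparisons with control, with 95% intervals from limma (n = 3 arrays per group). Filled red points passed an adjusted p of 0.05: 1 in each panel of 1 h (ABCC2 in both 10 µg/ml panels, ABCC3 208161_s_at with MWCNT 100 and ABCA1 216066_at with TiO2-NB 100 µg/ml) and none at 24 h.

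Among the apical drug pumps, ABCB1 was not called in any of the 21 comparisons. At 1 h its change was -0.07 ± 0.082 with MWCNT 10 µg/ml, 0.08 ± 0.082 with MWCNT 100, -0.04 ± 0.082 with TiO2-NB 10 and 0.09 ± 0.082 with TiO2-NB 100 (± is the standard error from limma, n = 3 arrays per group here and below). Its 24 h changes ran between -0.03 and 0.08. The 95% intervals of these 8 values lay within -0.24 and 0.26, so a larger change of ABCB1 mRNA lay outside every interval.

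ABCG2, the other broad apical drug pump, had its lowest 1 h level with MWCNT 10 µg/ml. Its arrays read 8.57, 8.81 and 8.62 there, against 8.92, 9.17 and 8.82 in the 1 h controls, and the groups did not overlap, although the nearest arrays were only 8.81 and 8.82. The change was -0.30 ± 0.10 and did not pass (limma, adjusted p = 0.0868). The arrays of the other 1 h exposures read 9.02, 8.74 and 8.82 with MWCNT 100, 8.81, 8.93 and 8.61 with TiO2-NB 10, and 9.08, 8.94 and 8.80 with TiO2-NB 100 µg/ml. Their changes were -0.11 ± 0.10 for MWCNT 100, -0.185 ± 0.10 for TiO2-NB 10 and -0.03 ± 0.10 for TiO2-NB 100 µg/ml, and all 3 groups overlapped with the controls. At 24 h the arrays read 8.52, 8.66 and 8.55 with MWCNT 10, 8.80, 8.63 and 8.51 with MWCNT 100, 8.62, 8.64 and 8.71 with TiO2-NB 10, and 8.62, 8.85 and 8.98 with TiO2-NB 100 µg/ml, against 8.74, 8.57 and 8.70 in the controls, and every exposed group overlapped with the controls. Between the controls ABCG2 was lower at the later time: the 24 h arrays read 8.74, 8.57 and 8.70, against 8.92, 9.17 and 8.82 at 1 h. It fell by 0.30 ± 0.10, or 1.23-fold, in 24 h controls (limma, adjusted p = 0.0486). ABCG2 was the only 1 of 13 transporter probe sets (7.69%) called between the controls, where 18.1% of all probe sets were called. In that comparison 4 of the 13 had arrays that did not overlap, against 34.2% of all probe sets. This call ended with the compared groups alone (limma, adjusted p = 0.0855) and with the replicate number as a block (adjusted p = 0.0504). It also ended with a second quantile normalisation (limma, adjusted p = 0.0635) and with the 18S level as a covariate (adjusted p = 0.0604). The same held without any of 5 of the 6 arrays. The largest adjusted p was 0.246 (limma), without 1 h control replicate 2, which moved the change to -0.20.

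The conjugate exporters of the ABCC family gave 3 of the 5 calls. ABCC2, the apical pump for glucuronides, glutathione conjugates and bilirubin, fell at the lower dose of both particles at 1 h. Its arrays read 8.61, 8.62 and 8.68 with MWCNT 10 µg/ml and 8.71, 8.61 and 8.48 with TiO2-NB 10 µg/ml, against 8.78, 8.92 and 8.79 in the 1 h controls. No exposed array reached the lowest control. With MWCNT 10 µg/ml it fell by 0.195 ± 0.056, or 1.14-fold (limma, adjusted p = 0.0379), and with TiO2-NB 10 µg/ml it fell by 0.23 ± 0.056, or 1.17-fold (limma, adjusted p = 0.0108). At 100 µg/ml its arrays read 8.75, 8.66 and 8.76 with MWCNT and 8.62, 8.62 and 8.78 with TiO2-NB, also below every control on the unrounded values. Those changes were -0.10 ± 0.056 and -0.16 ± 0.056 and did not pass (limma, adjusted p = 0.287 and 0.0859).

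The ABCC2 calls rested on narrow margins. With MWCNT 10 µg/ml the call ended with the compared groups alone (adjusted p = 0.175), with the replicate number as a block (adjusted p = 0.051), with the 18S level as a covariate (adjusted p = 0.124, with a change of -0.21 that was as large) and without any of 5 of the 6 arrays (adjusted p up to 0.189, without 1 h control replicate 2). With TiO2-NB 10 µg/ml it ended with the compared groups alone (adjusted p = 0.19), without 1 h control replicate 2 (adjusted p = 0.0788) or without TiO2-NB replicate 3 (adjusted p = 0.0893), and with the 18S covariate it was kept (-0.24, adjusted p = 0.0271). At 24 h the ABCC2 arrays read 8.91, 8.95 and 8.93 with MWCNT 10, 8.93, 8.86 and 8.90 with MWCNT 100, 8.87, 9.04 and 8.90 with TiO2-NB 10, and 8.88, 8.94 and 8.97 with TiO2-NB 100 µg/ml, against 8.96, 8.88 and 8.91 in the controls. All 4 exposed groups overlapped with the control, with changes of 0.01, -0.02, 0.02 and 0.01 (± 0.056 each). All 5 groups of 1 h had lower ABCC2 means than all 5 of 24 h, but the 24 h controls were above the 1 h controls by 0.09 ± 0.056 only, which did not pass (limma, adjusted p = 0.324). The genes whose 10 group means followed those of ABCC2 most closely, among 11962 eligible, were RB1CC1 (Pearson r = 0.993), DBP (0.991) and FBXO42 (0.988), given as a description with no test.

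ABCC3, the basolateral exporter of glucuronides and bile salts, fell with MWCNT 100 µg/ml at 1 h on its brighter probe set. The arrays read 11.35, 11.27 and 11.37, against 11.53, 11.45 and 11.62 in the 1 h controls, with no overlap. It fell by 0.20 ± 0.051, or 1.15-fold (limma, adjusted p = 0.0143). With TiO2-NB 100 µg/ml the arrays read 11.28, 11.37 and 11.49 and overlapped with the controls, and the change of -0.15 ± 0.051 did not pass (limma, adjusted p = 0.0724). At 10 µg/ml they read 11.54, 11.42 and 11.44 with MWCNT and 11.43, 11.48 and 11.47 with TiO2-NB, and the change was -0.07 ± 0.051 with either particle. At 24 h the ABCC3 arrays read 11.50, 11.45 and 11.53 with MWCNT 10, 11.39, 11.46 and 11.44 with MWCNT 100, 11.41, 11.41 and 11.46 with TiO2-NB 10, and 11.38, 11.33 and 11.33 with TiO2-NB 100 µg/ml, against 11.47, 11.50 and 11.39 in the controls. The TiO2-NB 100 µg/ml arrays alone lay below every 24 h control, at -0.105 ± 0.051, which did not pass (limma, adjusted p = 0.382). The dimmer ABCC3 probe set, 209641_s_at, stood at -0.045, -0.085, -0.06 and -0.07 (± 0.043 each) at 1 h with MWCNT 10, MWCNT 100, TiO2-NB 10 and TiO2-NB 100 µg/ml, and was not called. The 1 h control held the highest group mean on both ABCC3 probe sets, 11.53 on the brighter and 9.16 on the dimmer. The call with MWCNT 100 µg/ml ended with the compared groups alone (adjusted p = 0.22), with the 18S covariate (adjusted p = 0.151, with a change of -0.21 that was as large), without 1 h control replicate 3 (adjusted p = 0.0861) or without MWCNT replicate 2 (adjusted p = 0.0745). SELENBP1 (r = 0.946), VPS35L (0.932) and PROC (0.916) had the group means most like those of ABCC3.

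ABCC1, which exports glutathione conjugates and leukotriene C4, was not called on either probe set. On 202804_at the changes at 1 h were -0.14 ± 0.072 with MWCNT 10 and -0.12 ± 0.072 with TiO2-NB 10 µg/ml, and -0.01 and -0.02 at 100 µg/ml. Its second probe set, 202805_s_at, read 5.34, 5.35 and 4.68 in the 1 h controls, with 1 array far below the other two, and its changes at 1 h were 0.08 to 0.25 (± 0.14). ABCC4, the exporter of cyclic nucleotides, was not called either, and its 1 h changes lay between -0.09 and -0.03. At 24 h it stood above the control in every exposed group, by 0.21 with MWCNT 10, 0.22 with MWCNT 100, 0.25 with TiO2-NB 10 and 0.165 with TiO2-NB 100 µg/ml (± 0.10 each). The ABCC4 arrays read 8.18, 8.33 and 8.36 with TiO2-NB 10 µg/ml, against 7.94, 8.03 and 8.17 in the 24 h controls. None of these 4 values passed (limma, adjusted p = 1, 0.892, 0.599 and 0.556). All 4 rest on the 24 h control, which held the lowest ABCC4 group mean, 8.05.

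The sterol exporters gave 1 call, on a dim probe set. ABCA1 has 3 probe sets, and 216066_at, which is brighter than only 18.2% of all probe sets, read 4.42, 4.37 and 4.43 with TiO2-NB 100 µg/ml at 1 h, against 4.30, 4.10 and 4.10 in the controls. It rose by 0.24 ± 0.068, or 1.18-fold, with no overlap (limma, adjusted p = 0.027). Its other 1 h arrays read 4.30, 4.24 and 4.12 with MWCNT 10, 4.27, 4.45 and 4.15 with MWCNT 100, and 4.24, 4.25 and 4.29 with TiO2-NB 10 µg/ml, all groups that overlapped with the controls. At 24 h it read 4.21, 4.21 and 4.25 with MWCNT 10, 4.27, 4.32 and 4.29 with MWCNT 100, 4.13, 4.14 and 4.16 with TiO2-NB 10, and 4.26, 4.25 and 4.19 with TiO2-NB 100 µg/ml, against 4.27, 4.11 and 4.40 in the controls, whose 3 arrays spanned all of these. The 2 brighter ABCA1 probe sets stood at 0.16 ± 0.12 (203505_at) and 0.10 ± 0.11 (203504_s_at) in that comparison and did not pass (limma, adjusted p = 0.45 and 0.685). The call on 216066_at ended with the compared groups alone (adjusted p = 0.142), with array weights (adjusted p = 0.0664), with an intensity trend in the variances (adjusted p = 0.0689), with the 18S covariate (adjusted p = 0.0933, with a change of 0.22) and without any of 5 of the 6 arrays, where the adjusted p reached 0.126 without 1 h control replicate 3.

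On the brightest ABCA1 probe set, 203505_at, every exposed 1 h group had a mean above the control. Its arrays read 10.20, 9.74 and 9.90 with MWCNT 10 µg/ml, against 9.71, 9.43 and 9.80 in the 1 h controls, and the groups overlapped. The changes were 0.30 ± 0.12 with MWCNT 10, 0.24 ± 0.12 with MWCNT 100, 0.15 ± 0.12 with TiO2-NB 10 and 0.16 ± 0.12 with TiO2-NB 100 µg/ml, and none passed (limma, adjusted p = 0.13, 0.23, 0.497 and 0.45). The 1 h control held the lowest group mean of this probe set, 9.65, with a single array at 9.43. The 24 h controls stood 0.22 ± 0.12 above the 1 h controls (limma, adjusted p = 0.198).

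ABCG1, the partner of ABCA1 in cholesterol efflux, was dim on both probe sets and differed between them. On 211113_s_at the 1 h arrays read 5.12, 5.19 and 5.16 with MWCNT 10, 5.14, 5.14 and 5.03 with MWCNT 100, 5.46, 5.42 and 5.43 with TiO2-NB 10, and 5.35, 5.20 and 4.94 with TiO2-NB 100 µg/ml, against 5.38, 5.23 and 5.30 in the controls. Both MWCNT groups lay below every control array and the TiO2-NB 10 µg/ml group above every one. Against control the values were -0.15, -0.20, 0.13 and -0.14 (± 0.079 each) and none passed (smallest adjusted p = 0.129 with MWCNT 100 µg/ml, limma). On 204567_s_at the same 4 groups stood at 0.20, 0.15, 0.04 and 0.145 (± 0.10 each), the opposite side for 3 of them. At 24 h the 211113_s_at arrays read 5.31, 5.08 and 5.27 with MWCNT 10, 5.16, 5.27 and 5.37 with MWCNT 100, 5.27, 5.19 and 5.42 with TiO2-NB 10, and 5.32, 5.38 and 5.27 with TiO2-NB 100 µg/ml, against 5.35, 5.36 and 5.40 in the controls. Only the MWCNT 10 µg/ml arrays all lay below the controls, at -0.15 ± 0.079, and none of the 4 changes passed.

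A moderated F-test over the 5 groups of a time asked whether any of them differed. At 1 h it passed for ABCC2 (limma, adjusted p = 0.0472) and for ABCG1 211113_s_at (limma, adjusted p = 0.0296), 2 of 13 probe sets, against 8.52% of all probe sets, and ABCC3 208161_s_at followed at an adjusted p of 0.0599. Fitted on the arrays of 1 h alone, none of the 13 passed, with ABCC2 at 0.212 and ABCG1 at 0.111. At 24 h none of the 13 passed, against 3.14% of all probe sets, and the smallest adjusted p was 0.557.

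After 24 h no transporter probe set was called with either particle. The counts were 0 of 13 with MWCNT 10, MWCNT 100, TiO2-NB 10 and TiO2-NB 100 µg/ml, where 0.0045%, 0.009%, 0.0585% and 3.53% of all probe sets were called, so a count of 0 among 13 was near the background in each. At an unadjusted p under 0.05 the counts were 0, 1, 1 and 1, against 4.29%, 5.56%, 7.59% and 13% of all probe sets. Arrays did not overlap in 1, 1, 1 and 3 of the 13, against 12.2%, 14.2%, 14.2% and 22.5% of all probe sets. The 52 changes of 24 h ran between -0.20 for ABCA1 203504_s_at with TiO2-NB 100 µg/ml and 0.25 for ABCC4 with TiO2-NB 10 µg/ml. Their 95% intervals reached from -0.43 to 0.46, so a change beyond 1.35-fold down or 1.38-fold up lay outside every one of them. At 1 h the 52 changes ran between -0.30 (ABCG2) and 0.30 (ABCA1 203505_at), both with MWCNT 10 µg/ml, and the intervals reached from -0.52 to 0.54, or 1.43-fold down and 1.45-fold up. The median standard error was 0.082 at both times.

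No difference between doses passed for a transporter. Between 100 and 10 µg/ml, 0 of 13 probe sets were called (limma) for MWCNT at 1 h, for TiO2-NB at 1 h and for MWCNT at 24 h, where 0% of all probe sets were called, and for TiO2-NB at 24 h, where 1.83% were. At an unadjusted p under 0.05 the counts were 1, 2, 0 and 0, against 6.83%, 6.42%, 6.65% and 8.37% of all probe sets. The widest value was that of ABCG1 211113_s_at with TiO2-NB at 1 h, where 100 µg/ml stood at -0.28 ± 0.079 from 10 µg/ml (limma, adjusted p = 0.688). ABCC3 208161_s_at stood at -0.13 ± 0.051 in the 100 µg/ml MWCNT group from the 10 µg/ml group at 1 h (95% interval -0.24 to -0.03, limma, adjusted p = 0.684).

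No difference between the particles passed either. Between MWCNT and TiO2-NB, 0 of 13 were called at 10 µg/ml and 1 h (0.0675% of all probe sets), at 100 µg/ml and 1 h (0%), at 10 µg/ml and 24 h (0.0315%) and at 100 µg/ml and 24 h (2.88%), with 1, 0, 0 and 1 at an unadjusted p under 0.05. Over all probe sets, 13.7%, 9.25%, 4.88% and 12.6% had such an unadjusted p. ABCG1 211113_s_at gave the widest difference, -0.28 ± 0.079 for MWCNT minus TiO2-NB at 10 µg/ml and 1 h (95% interval -0.44 to -0.12), which did not pass (limma, adjusted p = 0.147). ABCC1 202804_at stood at -0.17 ± 0.072 for MWCNT minus TiO2-NB at 100 µg/ml and 24 h (limma, adjusted p = 0.284).

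Whether an exposure acted differently at the 2 times was tested as the 24 h change minus the 1 h change. None of the 13 passed with MWCNT 10 (1.79% of all probe sets), MWCNT 100 (2.71%), TiO2-NB 10 (3.83%) or TiO2-NB 100 µg/ml (5.84%), and 1, 1, 3 and 2 had an unadjusted p under 0.05 (limma). Over all probe sets, 13%, 16.2%, 17.6% and 18.7% had such an unadjusted p. ABCC2 came nearest, at 0.25 ± 0.079 with TiO2-NB 10 µg/ml (95% interval 0.08 to 0.41, limma, adjusted p = 0.0829), and stood at 0.21, 0.08 and 0.17 with MWCNT 10, MWCNT 100 and TiO2-NB 100 µg/ml (limma, adjusted p = 0.224, 0.682 and 0.243). Its falls at 1 h are therefore not shown to differ from its 24 h values. ABCC4 stood at 0.32 ± 0.15 with TiO2-NB 10 µg/ml (limma, adjusted p = 0.259), and ABCA1 216066_at at -0.27 ± 0.097 with TiO2-NB 100 µg/ml (limma, adjusted p = 0.114).

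Probe sets of the same gene were compared through each array's deviation from its group mean, over 30 arrays and 6 pairs of probe sets. The brighter ABCA1 probe sets varied together (Pearson r = 0.90, Spearman rho = 0.91, permutation p = 1e-05 for each, the smallest that 100000 resamples can give, adjusted p = 6e-05), and r was 0.87 without the 2 arrays farthest from the median. Those of ABCC3 did so too (r = 0.76, rho = 0.76, permutation p = 0.00039 and 0.00033, adjusted p = 0.0012 and 0.00099), with r = 0.67 without 2 arrays. The dim ABCA1 216066_at, which carried the call with TiO2-NB 100 µg/ml, followed neither of the brighter ones (r = 0.04 and 0.05, permutation p = 0.87 and 0.80, adjusted p = 0.94 each). ABCC1 gave r = -0.01 (permutation p = 0.94), and ABCG1 gave r = 0.38 (permutation p = 0.29, adjusted p = 0.58), which was 0.04 without 2 arrays and so rested on them.

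**Figure D3:**
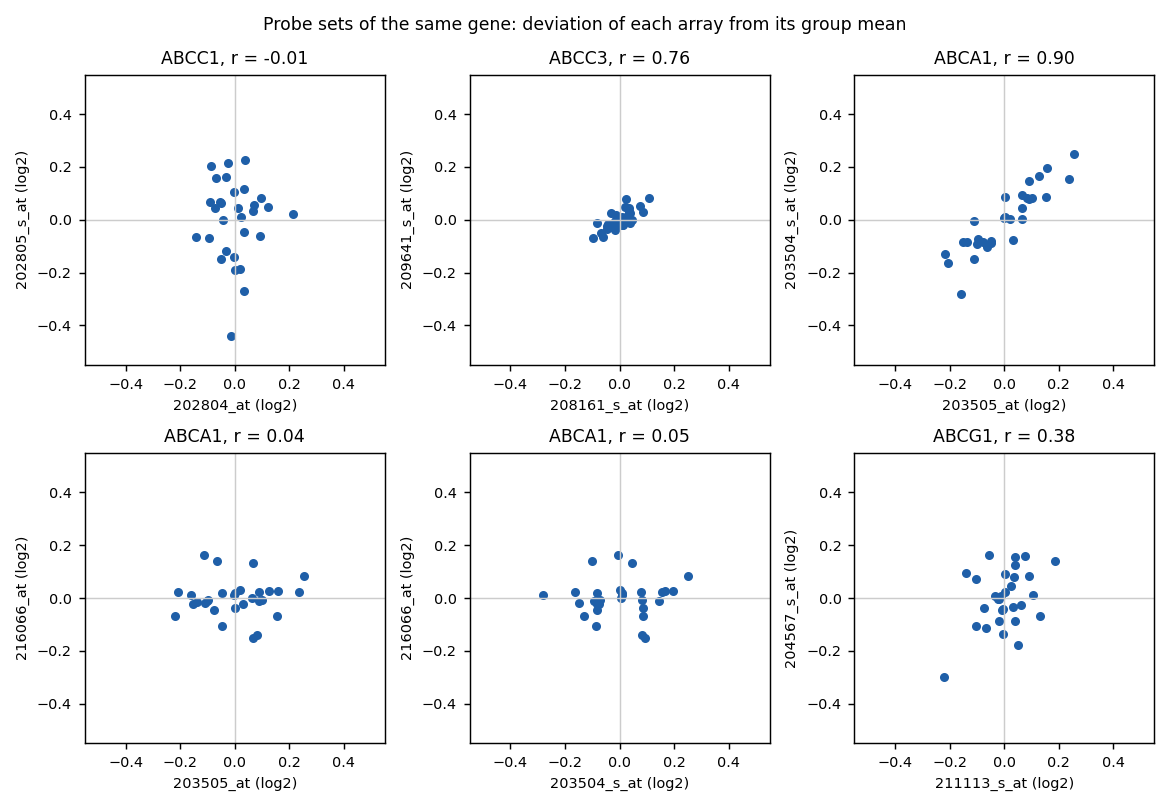
Deviation of each of the 30 arrays from its group mean (log2) on 1 probe set of a gene (horizontal) and another of the same gene (vertical), with Pearson r in the panel titles. ABCC3 (0.76) and the brighter ABCA1 pair (0.90) line up, and the dim ABCA1 216066_at (0.04 and 0.05) and the ABCC1 pair (-0.01) do not.

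Among other ABC genes, ABCA7 was the only one called in all 4 comparisons of 1 h. Of 29 further ABC genes measured at 1 h, 1 fell with MWCNT 10, 2 fell with MWCNT 100, 2 rose and 2 fell with TiO2-NB 10, and 3 fell with TiO2-NB 100 µg/ml, with 28, 27, 25 and 26 not passing, against 7.86%, 9.44%, 9.52% and 10.5% of all genes called. Their median changes were -0.03, -0.055, -0.04 and -0.04, beside -0.02, -0.01, 0.00 and 0.00 over all genes. ABCA7, a phospholipid exporter related to ABCA1, fell in all 4 groups (-0.32, -0.33, -0.33 and -0.27, ± 0.084 each, limma, adjusted p = 0.0228, 0.0152, 0.0141 and 0.0435). ABCB6, a porphyrin transporter, fell with MWCNT 100, TiO2-NB 10 and TiO2-NB 100 µg/ml (-0.18, -0.20 and -0.25, ± 0.050 each, limma, adjusted p = 0.0266, 0.0125 and 0.00232). ABCC8, the sulfonylurea receptor, and ABCF1, a translation factor with no membrane domain, rose with TiO2-NB 10 µg/ml by 0.39 ± 0.12 and 0.17 ± 0.042. The chloride channel CFTR, chosen after its values were seen, fell by 0.28 ± 0.083 with TiO2-NB 100 µg/ml (limma, adjusted p = 0.037). None of the 29 was called at 24 h.

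Among receptors and transcription factors known to act on efflux pump genes, AHR rose and PPARG fell in all 4 comparisons of 1 h. Of 20 such genes measured, 4 rose and 3 fell with MWCNT 10, 5 rose and 2 fell with MWCNT 100, 4 rose and 3 fell with TiO2-NB 10, and 4 rose and 2 fell with TiO2-NB 100 µg/ml at 1 h, against 7.86%, 9.44%, 9.52% and 10.5% of all genes called in either direction. The list was chosen with earlier results known, and these counts are no independent evidence. In the order MWCNT 10, MWCNT 100, TiO2-NB 10 and TiO2-NB 100 µg/ml, the dioxin receptor gene AHR rose by 0.52, 0.55, 0.40 and 0.46 (± 0.059), NFE2L2, which encodes NRF2, by 0.20, 0.25, 0.19 and 0.23 (± 0.046), and the vitamin D receptor gene VDR by 0.18, 0.20, 0.19 and 0.21 (± 0.055). In the same order RXRA, the shared partner of LXR, PXR and CAR, fell (-0.24, -0.18, -0.22 and -0.22, ± 0.044), as did PPARG, a fatty acid receptor (-0.78, -0.735, -0.81 and -0.88, ± 0.064). NR1I3, which encodes CAR, fell with MWCNT 10 and TiO2-NB 10 µg/ml (-0.37 and -0.43, ± 0.11). NFE2L2, VDR, RXRA and NR1I3 were chosen after their values were seen. At 24 h the only called member was FOXO3, a forkhead factor, which fell by 1.51 ± 0.16 with TiO2-NB 100 µg/ml (limma, adjusted p = 8.71e-07), where 3.15% of all genes and no transporter were called. The 18S signal was also above control in these 1 h groups (by 0.80 to 1.51), and its part in the changes of the regulators was not tested.

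Of 15 sterol genes, 1 rose with MWCNT 10, 1 rose and 2 fell with MWCNT 100, 1 rose and 1 fell with TiO2-NB 10, and 1 rose with TiO2-NB 100 µg/ml at 1 h, against the same 7.86%, 9.44%, 9.52% and 10.5% of all genes. At 24 h, 1 rose and 1 fell with TiO2-NB 100 µg/ml, against 3.15%, and none was called in the other groups. SREBF1, an LXR target and regulator of lipid synthesis, rose at 1 h by 0.37, 0.40, 0.39 and 0.42 in the 4 exposed groups (± 0.053). It was the sterol gene that rose in each 1 h count, and it was also counted among the receptors and transcription factors above. MYLIP, an LXR target that marks the LDL receptor for degradation, fell with MWCNT 100 and TiO2-NB 10 µg/ml at 1 h (-0.325 and -0.29, ± 0.090) and with TiO2-NB 100 µg/ml at 24 h (-0.61). NPC2 fell with MWCNT 100 µg/ml at 1 h (-0.16), and NPC1L1, the intestinal cholesterol uptake protein, rose with TiO2-NB 100 µg/ml at 24 h by 0.22 ± 0.058.

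Of 23 conjugation and glutathione genes, whose products make substrates for the ABCC pumps, 1 rose and 1 fell with MWCNT 10, 2 fell with MWCNT 100, 1 fell with TiO2-NB 10 and 1 fell with TiO2-NB 100 µg/ml at 1 h, against 7.86%, 9.44%, 9.52% and 10.5% of all genes. None was called at 24 h, where at most 3.15% of all genes were. SULT1B1, a sulfotransferase of the gut, fell in the 4 exposed groups (-0.23, -0.21, -0.21 and -0.34, ± 0.045), SULT1E1 fell by 0.42 ± 0.12 with MWCNT 100 µg/ml, and the glucuronosyltransferase UGT2A3 rose by 0.51 ± 0.14 with MWCNT 10 µg/ml. Of 14 uptake carriers, 2, 1, 2 and 1 fell in the same 4 comparisons, against 7.86%, 9.44%, 9.52% and 10.5% of all genes. None of the carriers rose, and none was called at 24 h. The carnitine transporter SLC22A5 fell in all 4 groups at 1 h (-0.235, -0.21, -0.29 and -0.28, ± 0.043). SLC19A1, which brings folate and methotrexate into cells, fell by 0.21 ± 0.056 with MWCNT 10 µg/ml, and SLCO4C1 fell by 0.25 ± 0.074 with TiO2-NB 10 µg/ml. Of 6 enzymes controlled by PXR and CAR, 1 rose with each MWCNT dose at 1 h, against 7.86% and 9.44% of all genes. With TiO2-NB 100 µg/ml at 24 h 1 of them fell, against 3.15%, and none was called in the other groups. ALAS1 rose at 1 h with MWCNT 10 and 100 µg/ml by 0.14 and 0.14 (± 0.039), and the carboxylesterase CES2 fell by 0.375 ± 0.063 with TiO2-NB 100 µg/ml at 24 h. CYP3A4, the classical target of PXR beside ABCB1, did not pass, with 1 h values of 0.18, 0.26, 0.12 and 0.205 (± 0.090).

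Of 9 scaffold and trafficking genes of apical transporters, none was called with MWCNT 10 µg/ml at 1 h (7.86% of all genes), 2 rose and 1 fell with MWCNT 100 (9.44%), 1 fell with TiO2-NB 10 (9.52%), and 1 rose and 1 fell with TiO2-NB 100 µg/ml (10.5%). None was called at 24 h, where at most 3.15% of all genes were. PDZK1, a PDZ protein that holds transporters at the brush border, fell with MWCNT 100, TiO2-NB 10 and TiO2-NB 100 µg/ml (-0.15, -0.22 and -0.17, ± 0.043). MSN, an actin linker, rose with MWCNT 100 and TiO2-NB 100 µg/ml by 0.54 and 0.33 (± 0.10), and the scaffold NHERF1 rose with MWCNT 100 µg/ml by 0.16 ± 0.047. EZR, which encodes the ezrin linker of the brush border, did not pass (0.04 to 0.09 at 1 h). The sterol, conjugation, uptake, enzyme and scaffold genes given as rising or falling were all those called in their lists in the 8 comparisons with control.

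**Figure D4:**
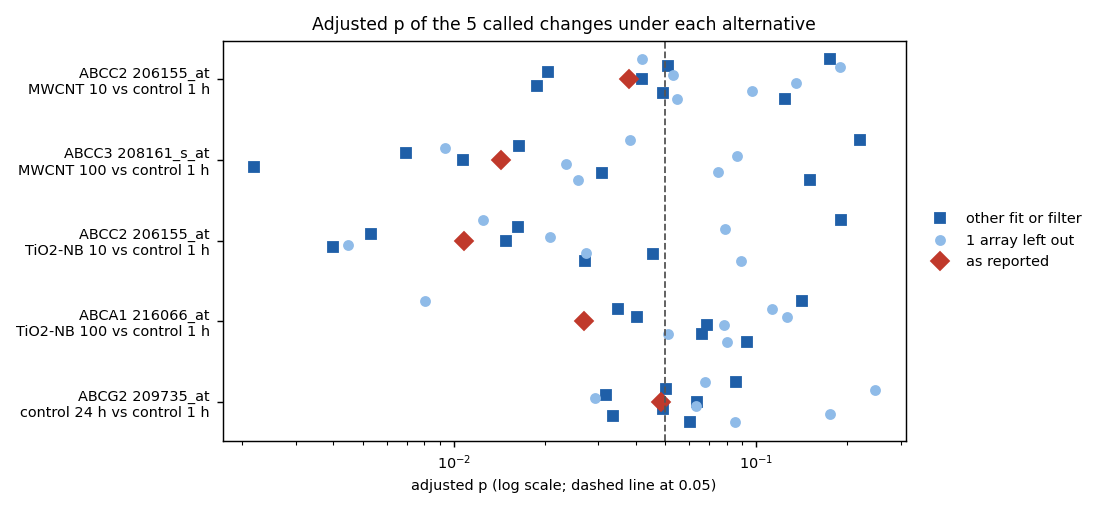
Adjusted p (log scale, horizontal; dashed line at 0.05) of the 5 called changes of transporter probe sets, as reported (red diamonds), with another fit or filter (squares) and with 1 array left out (circles). At the limit of 0.05, ABCC2 with TiO2-NB 10 µg/ml kept its call in 10 of 13 alternatives and ABCC3 in 9 of 13, while ABCC2 with MWCNT 10 µg/ml did in 5 of 13, ABCG2 in 4 of 13 and ABCA1 216066_at in 3 of 12.

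The 5 calls differed in how often they were kept at an adjusted p under 0.05 when the fit, the filter or the arrays were varied. At the stricter limit of 0.01, which is not among the alternatives counted here, none of the 5 passed. The fall of ABCC2 with TiO2-NB 10 µg/ml was kept in 10 of 13 alternatives and that of ABCC3 with MWCNT 100 µg/ml in 9 of 13. The fall of ABCC2 with MWCNT 10 µg/ml was kept in 5 of 13, that of ABCG2 in the 24 h controls in 4 of 13, and the rise of ABCA1 216066_at in 3 of 12. All 5 ended when only the compared groups were fitted, and the sign of each was the same in every alternative. The fit of only the compared groups also called fewer of all probe sets. At 1 h it called 84 with MWCNT 10, 112 with MWCNT 100, 219 with TiO2-NB 10 and 269 with TiO2-NB 100 µg/ml. The fit of all 30 arrays called 1435, 1729, 1742 and 1872. Between the controls it called 4014, against 2525 with only the compared groups.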

How the data were processed

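The authors' deposited log2 levels, made with RMA per the submitters' processing notes, were used as given (30 arrays, 22277 probe sets). Neither its version nor the chip definition is given in the sources used here. Of all probe sets, 62 control probe sets were left out and 22215 tested. Symbols came from the platform annotation (19064 probe sets with 1 symbol, 1043 with several, 2108 with none), and the probe set with the highest mean over all arrays stood for a gene. A mean per group was fitted to all 30 arrays with limma 3.58.1 in R 4.3.3 (lmFit, contrasts, eBayes; 20 residual and 3.68 prior degrees of freedom), two-sided, with Benjamini-Hochberg adjustment within each comparison; adjusted p under 0.05 is a call. The fit was tested on simulated data. An array has no read depth, and 3 arrays per group limit the precision. Labels call the replicates biological.

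The members and lists were chosen with earlier results of these data known. Every array's value is given for a probe set that passed an F-test or was called, and up to 4 genes of each list were named by smallest p; further genes are marked as picked later. Alternatives were the compared groups alone, a replicate block, no dim probe sets, quantile normalisation of the deposited values, robust variances with an intensity trend, weights per array, an 18S covariate, adjusted p under 0.01, and leaving out each array.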

Additional observations from a re-analysis of the deposited data

How the results depend on the processing

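The count of called transporter probe sets was 1 in each 1 h comparison and between the controls, and small enough for single arrays to decide it. It was 0 in all 5 of these comparisons with the compared groups alone and at adjusted p under 0.01. It was 0 with the 18S covariate for MWCNT 10, MWCNT 100 and TiO2-NB 100 µg/ml and for the controls, 0 with the replicate block for MWCNT 10 µg/ml and for the controls, 0 with array weights for TiO2-NB 100 µg/ml, and 0 with a second quantile normalisation for the controls. Leaving out 1 array gave 0 to 1 with MWCNT 10 (0 without control replicate 2 or 3, or MWCNT replicate 2 or 3), 0 to 1 with MWCNT 100 (0 without control replicate 3 or MWCNT replicate 2), 0 to 1 with TiO2-NB 10 (0 without control replicate 2 or TiO2-NB replicate 3), 0 to 2 with TiO2-NB 100 µg/ml (0 without control replicate 3 or TiO2-NB replicate 1 or 2, and 2 without TiO2-NB replicate 3, when ABCC2 at -0.21, adjusted p = 0.0304, and ABCC3 at -0.20, adjusted p = 0.0187, were called), and 0 to 1 for the controls (1 only without 1 h control replicate 3). Without MWCNT replicate 1 the called probe set with MWCNT 10 µg/ml was ABCC1 202804_at (-0.25, adjusted p = 0.0329) in place of ABCC2 (adjusted p = 0.135). Calls over all probe sets also fell under some of these settings. In the 1 h comparisons they were 1435 to 1872 as reported and 84 to 269 with the compared groups alone. They were 579 to 904 at adjusted p under 0.01, and 347 to 1464 with the 18S covariate.

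For the 24 h minus 1 h change with TiO2-NB 10 µg/ml the count was 0, and it was 1 (ABCC2, 0.25, adjusted p = 0.0498) without the 33.3% of probe sets with the lowest mean, and 0 to 1 with an array left out (1 without 1 h TiO2-NB replicate 1, ABCC2 at 0.30, adjusted p = 0.0369). With TiO2-NB 100 µg/ml it was 0 to 1 (1 without 1 h control replicate 1 or 24 h control replicate 2, ABCA1 216066_at at -0.33 and -0.34, adjusted p = 0.04 and 0.0361). The filter on dim probe sets removed 4 of the 13 (ABCC1 202805_s_at, ABCA1 216066_at and both of ABCG1), so these have no value under it. ABCC3 with TiO2-NB 100 µg/ml at 1 h (-0.15) passed under that filter (adjusted p = 0.041) and with an intensity trend (adjusted p = 0.0232). No single change of the 13 probe sets that was called changed sign, and the other counts, all 0, were 0 under every alternative run.

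Replicate numbers did not pair the samples: of 24 same-numbered pairs, 5 had deviations correlated above 0.1 (range -0.12 to 0.21), and no comparison had all 3. With the replicate block the calls of ABCC2 with MWCNT 10 µg/ml (adjusted p = 0.051) and of ABCG2 between the controls (adjusted p = 0.0504) ended, and no other call of a transporter changed.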
